A study of Mus musculus with 12 samples.

Results

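The genes described here serve the osteoclast, the cell that resorbs bone, in acidifying and digesting the bone surface. They are the 26 gene symbols that begin with Atp6v or Atp6ap, which name subunits and accessory proteins of the vacuolar proton pump, and 15 further symbols listed by name: Acp5, Ctsk, Oscar, Calcr, Nfatc1, Itgb3, Tcirg1, Clcn7, Ostm1, Car2, Ocstamp, Slc4a2, Snx10, Plekhm1 and Src. Together they make 41 of the 19510 gene symbols in the deposited tables; the rule goes by name and uses no measured value, though it was drawn up with earlier results of these data known. They were followed by RNA sequencing in femurs of 5-week-old male mice of mixed strain background, in 4 groups of 3 libraries: metaphysis of Dlx3Oc-cKO mice (cKO from here on), metaphysis of wild-type mice (WT), diaphysis of cKO mice and diaphysis of WT mice. The metaphysis is the flared end of the bone next to the growth plate, and the diaphysis is its shaft. Dlx3 encodes a homeobox transcription factor of bone-forming cells. The labels name the mutant as Dlx3Oc-cKO and the WT as Dlx3+/+, without spelling out the Cre driver or saying whether WT mice carried Cre. From general knowledge of this line and not from the labels, Cre is driven by the osteocalcin promoter, which is active in osteoblasts and osteocytes and not in osteoclasts.

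An osteoclast seals off a patch of bone and pumps protons into the closed space through a vacuolar ATPase placed in its ruffled border. Carbonic anhydrase II supplies the protons, a chloride/proton exchanger balances the charge, and a bicarbonate exchanger on the opposite membrane keeps the cytoplasm neutral. The acid dissolves the mineral, and cathepsin K and other enzymes digest the collagen that is left. The same pump acidifies lysosomes in all cells, so most of its subunits are widely expressed, whereas the a3 subunit (Tcirg1) and the d2 subunit (Atp6v0d2) are the forms enriched in osteoclasts.

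Levels are given in RPKM, a read number corrected for transcript length and for the size of the library, and summed over the transcripts of a symbol. Depth read from the spacing of the lowest values was 24.8 to 35.0 M (mega) reads per library in the metaphysis and 18.6 to 54.4 M in the diaphysis, and globin took 13.5% to 22.1% and 15.1% to 32.6% of the summed RPKM. In the metaphysis the globin share was 15.8%, 13.5% and 17.2% in cKO libraries against 19.1%, 22.1% and 19.0% in WT libraries, without overlap. In the diaphysis it overlapped between genotypes. Dlx3 itself was at 1.98, 2.80 and 3.24 RPKM in metaphysis cKO libraries against 8.37, 8.90 and 10.1 RPKM in metaphysis WT libraries. In the diaphysis it was at 0.763, 1.55 and 1.17 RPKM in cKO libraries against 3.22, 7.64 and 13.1 RPKM in WT libraries, so the genotypes did not overlap in either region. The defining osteoclast markers Acp5, Ctsk, Calcr, Mmp9 and Dcstamp were above 0 in all 12 libraries. Each of the 12 library titles carries its own number, but the labels do not state that each library is a different mouse. Every p-value therefore reflects the spread among libraries, which may be technical. In RNA from whole tissue, fewer cells of a type and less RNA per cell cannot be told apart.

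In the metaphysis, 14 of the 35 members that could be tested were higher in cKO and none was lower, and they were spread over its roles: both enzymes, both osteoclast-type pump subunits, the receptor Oscar, the fusion protein Ocstamp, the transcription factor Nfatc1, the sorting nexin Snx10, the bicarbonate exchanger Slc4a2, the chloride exchanger Clcn7, and the pump subunits Atp6v0c, Atp6v1b2 and Atp6v0e with the transcribed copy Atp6v0c-ps2. Higher or lower is used where the adjusted p of limma, over all 12641 genes tested in the region, was under 0.05; of those genes 7.51% were higher and 3.89% lower. The other 21 members did not pass that threshold; before adjustment 29 of the 35 had a limma p under 0.05, Car2 and Atp6v0a1 with lower values in cKO, and 30.6% of all genes tested had one. The difference between genotypes was positive in 31 members and negative in 4, with a median of 0.32 on the log2(RPKM + 0.1) scale, cKO minus WT, beside a median of -0.04 over all genes tested. The 3 cKO libraries lay wholly above the 3 WT libraries in 27 members and wholly below them in 2, where 18.7% of all genes tested lay wholly above and 18.4% wholly below. Of the 6 members not tested in either region, Atp6v0a4, Atp6v1b1, Atp6v1c2, Atp6v1e2, Atp6v1g3 and Atp6ap1l, none reached 1 RPKM in any library for which it has a value; Atp6v1g3 has no entry in the metaphysis table. Atp6v1b1 and Atp6v0a4 are known as the pump subunits of kidney and inner ear.

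These calls rest on the full set of 6 libraries. WT replicate 2 of the metaphysis was the lowest library in 22 of the 35 members, and no WT library other than WT replicate 2 was the highest in any. Without cKO replicate 3 or without WT replicate 1, Snx10 alone of the 14 remained past the threshold, and without WT replicate 2 only Atp6v0d2, Slc4a2 and Snx10 remained, while 10 to 12 of the 14 remained without cKO replicate 1, cKO replicate 2 or WT replicate 3. The 14 log2 differences stayed positive in every one of these fits.

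Both resorption enzymes rose in the cKO metaphysis. Acp5, tartrate-resistant acid phosphatase, was at 1780.45, 2095 and 2202 RPKM in cKO libraries against 1024, 934 and 1223 RPKM in WT libraries. It was the most abundant member in the WT metaphysis, and the lowest cKO library lay above the highest WT library. The log2 difference was 0.94 ± 0.14 (SE; limma adjusted p = 0.0144, n = 3 against 3), a ratio of mean RPKM of 1.91. Ctsk, the collagen-cleaving cathepsin K, was at 1483, 1337 and 1469 RPKM in cKO libraries against 806, 863 and 998 RPKM in WT libraries. Here too the genotypes stood apart, with a log2 difference of 0.69 ± 0.12 (SE; limma adjusted p = 0.0175).

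The osteoclast-type pump subunits rose by similar amounts. Tcirg1, the a3 subunit, whose loss causes osteopetrosis in mice and people, was at 75.8, 75.8 and 87.3 RPKM in cKO libraries against 56.7, 42.3 and 56.7 RPKM in WT libraries. Its log2 difference was 0.63 ± 0.14 (SE; limma adjusted p = 0.0310), and WT replicate 2 was the lowest library. Atp6v0d2, the d2 subunit, which has also been tied to the fusion of osteoclast precursors, was at 62.4, 64.0 and 63.1 RPKM in cKO libraries against 33.5, 31.8 and 41.5 RPKM in WT libraries. The cKO libraries were almost level with each other and well above the WT libraries (log2 difference 0.84 ± 0.11 SE, limma adjusted p = 0.0117).

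Among receptors, fusion proteins and regulators, 3 of 6 rose. Oscar, an immunoglobulin-like receptor that gives osteoclast precursors a costimulatory signal, was at 21.1, 20.6 and 24.2 RPKM in cKO libraries against 9.09, 11.0 and 13.8 RPKM in WT libraries. Its log2 difference of 0.97 ± 0.16 (SE; limma adjusted p = 0.0162) was the largest of the 35 members. Ocstamp, a membrane protein needed for precursors to fuse into large cells, was at 18.1, 14.8 and 20.6 RPKM in cKO libraries against 9.49, 8.25 and 11.96 RPKM in WT libraries (log2 difference 0.85 ± 0.17 SE, limma adjusted p = 0.0266). Neither gene overlapped between the genotypes.

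Nfatc1, the transcription factor that switches on much of the osteoclast programme, was at 28.0, 35.4 and 29.2 RPKM in cKO libraries against 19.9, 17.6 and 19.8 RPKM in WT libraries. The log2 difference was 0.68 ± 0.11 (SE; limma adjusted p = 0.0171). That call rested on summed transcripts: with the highest transcript of each gene taken instead, Nfatc1 did not pass the threshold. It is listed as 6 transcripts, and the shares of 2 of them, singled out after their values were seen, did not overlap between the genotypes. NM_001164111 made up 6.8%, 6.9% and 5.9% of Nfatc1 RPKM in cKO libraries against 14.5%, 20.1% and 11.3% in WT libraries. NM_001164109 made up 40.1%, 28.8% and 38.0% of Nfatc1 RPKM in cKO libraries against 28.0%, 10.1% and 26.2% in WT libraries. The share of NM_001164109 was higher in cKO, by a small gap between the nearest libraries, and that of NM_001164111 lower. In the diaphysis NM_001164109 held 7.0%, 4.3% and 8.1% in cKO libraries against 1.2%, 8.5% and 5.8% in WT libraries, and both transcripts overlapped between genotypes. Such a separation was not particular to Nfatc1. In the metaphysis the Acp5 transcript NM_007388 held 84.6%, 85.8% and 87.0% in cKO libraries against 83.6%, 81.4% and 83.6% in WT libraries. The low Calcr transcript NM_007588 held 8.0%, 4.2% and 10.7% against 0.71% in each WT library. The WT shares of 0.714512%, 0.714514% and 0.714514% are too alike to be read as separate measurements. They stand for only 0.00882, 0.0115 and 0.0126 RPKM, so no genotype difference is read from this transcript. Transcript shares of Tcirg1, Snx10 and Src overlapped, and shares were not computed over all genes. How reads were divided among overlapping transcripts is not given in the sources used here, and no test was made on these shares.

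The other 3 of this group did not pass the threshold. Calcr, the calcitonin receptor of mature osteoclasts, was low, at 2.39, 4.74 and 1.64 RPKM in cKO libraries against 1.23, 1.62 and 1.76 RPKM in WT libraries, and the genotypes overlapped (log2 difference 0.77 ± 0.36 SE, limma adjusted p = 0.201). Itgb3, the beta3 integrin of the adhesion ring, which platelets and megakaryocytes also carry, was at 88.1, 61.7 and 64.2 RPKM in cKO libraries against 76.9, 67.9 and 67.4 RPKM in WT libraries. Its log2 difference was -0.0045 ± 0.15 (SE; limma adjusted p = 0.989), and it was slightly positive under both other scalings tried. The summed RPKM of 5 megakaryocyte markers, none at 0, was 361 to 489 in cKO libraries against 590 to 741 in WT libraries. Of these markers 1, Ppbp, was lower (limma adjusted p = 0.0171), and the other 4 did not pass the threshold. The part of this sum in the Itgb3 values was not tested. Src, the kinase needed for the ruffled border, was at 15.7, 14.5 and 15.8 RPKM in cKO libraries against 13.6, 10.1 and 12.4 RPKM in WT libraries (log2 difference 0.36 ± 0.12 SE, limma adjusted p = 0.104).

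**Figure D1:**
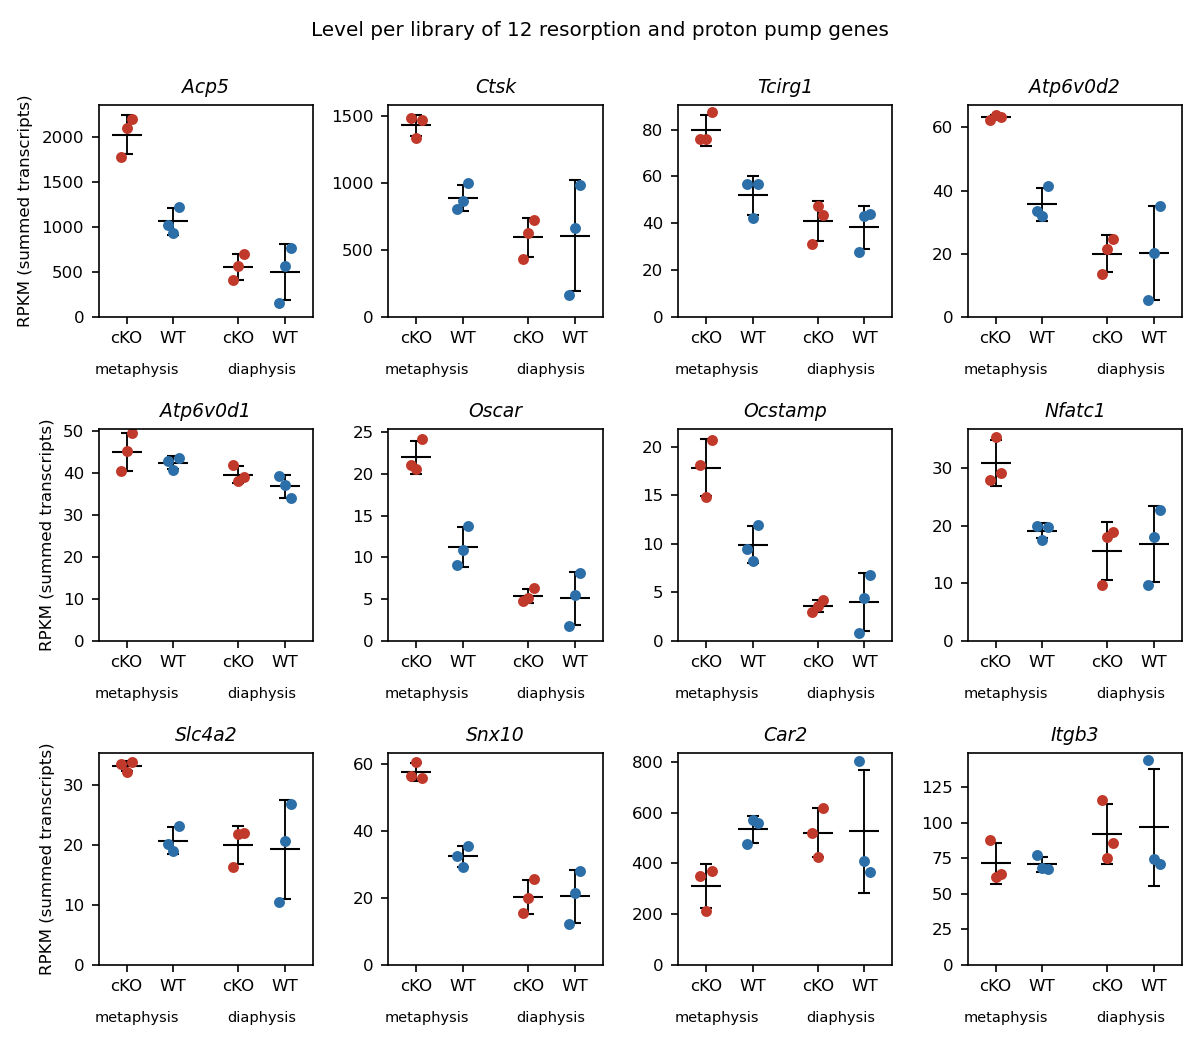
Level of 12 genes in every library, in RPKM summed over transcripts on linear axes that start at 0, with metaphysis on the left of each panel and diaphysis on the right; red points are cKO libraries, blue points WT libraries, and bars the mean ± SD of 3 libraries. In the metaphysis the cKO points of Acp5, Ctsk, Tcirg1, Atp6v0d2, Oscar, Ocstamp, Nfatc1, Slc4a2 and Snx10 lie above all WT points, those of Car2 lie below, and those of Atp6v0d1 and Itgb3 overlap; in the diaphysis all 12 genes overlap.

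Of the vesicle genes, 1 of 2 rose. Snx10, a sorting nexin of the traffic to the ruffled border whose loss causes osteopetrosis, was at 56.5, 60.7 and 55.7 RPKM in cKO libraries against 32.5, 29.1 and 35.5 RPKM in WT libraries. Its log2 difference of 0.83 ± 0.10 (SE) had the smallest limma adjusted p of the members, 0.0101, and it was the member called in all 6 fits that left out 1 library. Plekhm1, an adaptor for the fusion of lysosomes with the ruffled border, was at 17.0, 17.3 and 16.2 RPKM in cKO libraries against 14.3, 13.0 and 13.8 RPKM in WT libraries. The groups did not overlap, but the log2 difference of 0.30 ± 0.08 (SE) had a limma adjusted p of 0.0602.

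The genes that supply protons and balance the charge did not move as a block. Slc4a2, the chloride/bicarbonate exchanger of the opposite membrane, was at 33.5, 32.2 and 33.9 RPKM in cKO libraries against 20.1, 18.9 and 23.2 RPKM in WT libraries, a log2 difference of 0.68 ± 0.10 (SE; limma adjusted p = 0.0128). On the opposite strand its exons share 694 bases with Fastk, 11.2% of its exon bases, and an unstranded library cannot assign those reads. Clcn7, the chloride/proton exchanger, was at 23.8, 20.2 and 21.8 RPKM in cKO libraries against 16.5, 14.04 and 16.9 RPKM in WT libraries (log2 difference 0.47 ± 0.11 SE, limma adjusted p = 0.0364). Both exchangers were higher in every cKO library than in any WT library.

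Its partner Ostm1, the subunit that stabilises Clcn7, was at 22.6, 21.4 and 21.7 RPKM in cKO libraries against 19.5, 16.7 and 18.9 RPKM in WT libraries. The log2 difference of 0.25 ± 0.09 (SE) did not pass the threshold (limma adjusted p = 0.110). Car2, carbonic anhydrase II, had the most negative difference of the members. It was at 352, 211 and 371 RPKM in cKO libraries against 474, 572 and 559 RPKM in WT libraries. All 3 cKO libraries lay below all WT libraries, and the log2 difference of -0.82 ± 0.22 (SE) was just outside the threshold (limma adjusted p = 0.0525); with genes under 5 RPKM left out it was called lower. Red cell precursors also express Car2, and the summed RPKM of 7 of their markers, none at 0, was 470 to 832 in cKO libraries against 1065 to 1327 in WT libraries. Of these markers 3 were lower and 4 did not pass the threshold. Their part in the Car2 result was not tested.

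Differences were smaller among the widely expressed pump subunits. Of 16 tested, 3 were higher and 13 did not pass the threshold, with a median log2 difference of 0.28 and a range of -0.20 to 0.62. The 3 were Atp6v0c (0.62 ± 0.12 SE, limma adjusted p = 0.0249), a subunit of the membrane ring, Atp6v1b2 (0.44 ± 0.09, adjusted p = 0.0239), the B subunit of the ATP-splitting head, and Atp6v0e (0.32 ± 0.08, adjusted p = 0.0491). Atp6v0a1, the a1 subunit of the membrane sector, had the lowest difference, -0.20 ± 0.08 (SE; limma adjusted p = 0.130). It was at 15.1, 15.5 and 16.1 RPKM in cKO libraries against 17.9, 18.2 and 17.7 RPKM in WT libraries, so here the cKO libraries lay wholly below. Atp6v0d1, the widely expressed counterpart of d2, was at 40.4, 45.3 and 49.4 RPKM in cKO libraries against 42.9, 40.6 and 43.6 RPKM in WT libraries and overlapped between genotypes (log2 difference 0.08 ± 0.10 SE, limma adjusted p = 0.602). Atp6v1c1, a C subunit of the stalk, was at 39.6, 39.4 and 37.8 RPKM in cKO libraries against 30.8, 29.2 and 35.2 RPKM in WT libraries (log2 difference 0.30 ± 0.09 SE, limma adjusted p = 0.0825). Of the subunits known from other tissues, Atp6v0e2 at 1.03 to 3.30 RPKM in cKO libraries against 2.02 to 3.42 RPKM in WT libraries, and Atp6v1g2 at 2.24 to 2.68 RPKM against 1.35 to 2.07 RPKM, were the only members of their class above the filter. Neither passed the threshold (limma adjusted p = 0.263 and 0.156).

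**Figure D2:**
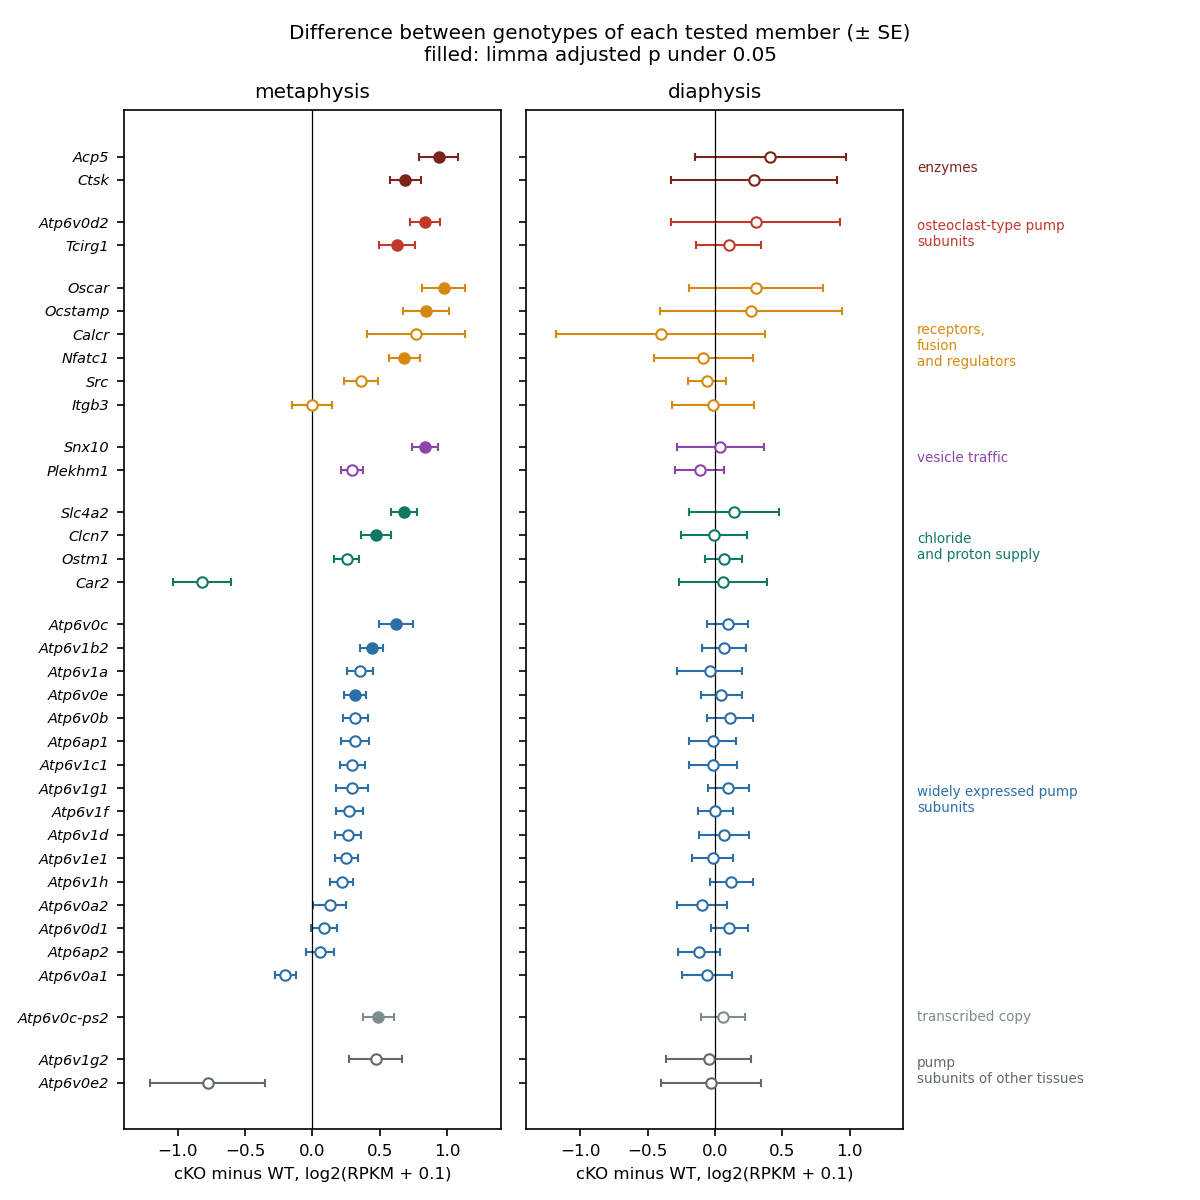
Difference between genotypes of the 35 tested members, cKO minus WT on the log2(RPKM + 0.1) scale with its standard error, grouped by role, in the metaphysis (left) and the diaphysis (right); filled points have a limma adjusted p under 0.05. In the metaphysis 14 points are filled, all to the right of 0, and Car2 at -0.82 lies farthest to the left; in the diaphysis no point is filled and the error bars of Acp5, Ctsk, Atp6v0d2 and Ocstamp are wide.

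Within each library the osteoclast-type subunits were also set against their widely expressed counterparts, which removes any scaling that all genes share. Tcirg1 over the sum of Atp6v0a1 and Atp6v0a2 was 2.70, 3.001 and 3.15 in metaphysis cKO libraries against 2.02, 1.51 and 1.96 in metaphysis WT libraries. Atp6v0d2 over Atp6v0d1 was 1.55, 1.41 and 1.28 in cKO libraries against 0.780, 0.782 and 0.951 in WT libraries, so the d2 form exceeded d1 in every cKO library and in no WT library. The log2 differences of the 2 ratios were 0.70 and 0.76, each with an exact 2-sided permutation p of 0.1, the smallest that 3 against 3 libraries allow. With the median of the 16 widely expressed subunits as denominator they were smaller, 0.28 for Tcirg1 and 0.49 for Atp6v0d2, and still without overlap.

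In the diaphysis the same ratios did not separate the genotypes. Tcirg1 over Atp6v0a1 plus Atp6v0a2 was 1.04, 1.46 and 1.39 in cKO libraries against 0.752, 1.31 and 1.48 in WT libraries (log2 difference 0.18, exact permutation p = 0.7). Atp6v0d2 over Atp6v0d1 was 0.322, 0.569 and 0.636 in cKO libraries against 0.136, 0.547 and 1.04 in WT libraries (log2 difference 0.20, exact permutation p = 0.8). WT replicate 1 was lowest and WT replicate 3 highest in each ratio, and without WT replicate 1 the log2 differences turned to -0.12 and -0.62.

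**Figure D3:**
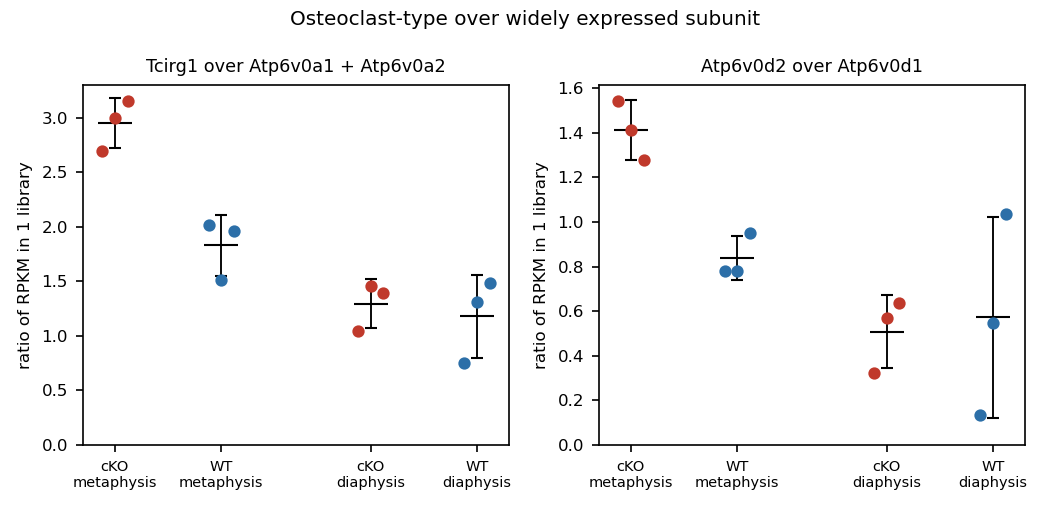
Ratio of RPKM within 1 library of Tcirg1 to the sum of Atp6v0a1 and Atp6v0a2 (left) and of Atp6v0d2 to Atp6v0d1 (right), on linear axes from 0; red points are cKO and blue points WT libraries, with the mean ± SD of 3. In the metaphysis all cKO ratios lie above all WT ratios, and in the diaphysis the WT libraries spread on both sides of the cKO libraries.

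The value of Atp6v0c needs its near-identical copy beside it. Atp6v0c-ps2 is a transcribed copy of the Atp6v0c coding sequence on mm9 chr6:37756086-37756553, plus strand, and the 468 coding bases of Atp6v0c differ from it at a single base, T111C, counted from the A of the start codon, with the Atp6v0c base first. The stretch around that base, coding bases 81 to 140, is shown because a read from the coding sequence that misses the capital letter fits both equally:
Atp6v0c: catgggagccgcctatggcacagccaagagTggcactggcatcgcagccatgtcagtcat
Atp6v0c-ps2: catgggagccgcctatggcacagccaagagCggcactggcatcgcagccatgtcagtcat
Capitals mark the differing base. The longest run without a difference is 357 bases, so the split of reads between the 2 symbols is uncertain. Atp6v0c was at 53.2, 64.1 and 67.1 RPKM in metaphysis cKO libraries against 41.5, 35.2 and 43.1 RPKM in WT libraries. The copy was at 207, 232 and 240.1 RPKM in cKO libraries against 164, 141 and 179.9 RPKM in WT libraries (log2 difference 0.49 ± 0.12 SE, limma adjusted p = 0.0404). The copy exceeded Atp6v0c in every library. Added together they gave 288 ± 24.8 RPKM in cKO against 202 ± 23.8 RPKM in WT (SD, n = 3 each), again without overlap. Leaving Atp6v0c out, 2 of the other 15 widely expressed subunits were higher.

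Upstream sequence was looked up for the members in the RefSeq promoter table (built on GRCm38.p6), which held 29 of the 41 in 41 windows. Only the 250 bases before each start were searched, on both strands, and windows were placed on mm9 by an exact match. The motifs were the E-box CACGTG and its longer form TCACGTGA, which lysosomal transcription factors bind, GAGGAAG, a form of the PU.1 site of macrophages and osteoclasts, TGANTCA, the AP-1 site, GGAAA, the core of the NFAT site, and TATAAA. The windows of an enzyme, a receptor and an exchanger past the threshold in the metaphysis are shown because they hold such a match, with the PU.1 form (or its complement CTTCCTC) or the E-box in capitals. Ctsk lies on mm9 chr3:95302882-95303131, plus strand, Oscar on chr7:3567760-3568009, minus strand, and Clcn7 on chr17:25270086-25270335, plus strand:
Ctsk: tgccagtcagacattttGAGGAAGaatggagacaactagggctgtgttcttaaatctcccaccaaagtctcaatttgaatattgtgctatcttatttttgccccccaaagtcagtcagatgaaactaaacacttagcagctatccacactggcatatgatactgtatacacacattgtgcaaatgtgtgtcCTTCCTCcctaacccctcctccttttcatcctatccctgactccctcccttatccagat
Oscar: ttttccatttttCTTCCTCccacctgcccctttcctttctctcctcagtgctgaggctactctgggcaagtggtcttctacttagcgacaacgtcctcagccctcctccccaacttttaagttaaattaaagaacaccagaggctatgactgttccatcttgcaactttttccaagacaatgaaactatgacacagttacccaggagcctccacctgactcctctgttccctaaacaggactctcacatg
Clcn7: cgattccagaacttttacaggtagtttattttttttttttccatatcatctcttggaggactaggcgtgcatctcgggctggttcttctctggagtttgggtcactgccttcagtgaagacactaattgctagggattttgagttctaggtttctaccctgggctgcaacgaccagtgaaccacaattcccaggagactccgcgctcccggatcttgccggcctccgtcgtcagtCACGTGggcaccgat
The PU.1 form occurred in 4 of the 41 member windows (Ctsk, at 2 places, Oscar, Src and Atp6v1d) and in 10.6% of all 32851 windows of that length. The E-box occurred in 3 of the 41 member windows (Clcn7, Atp6v1a and Atp6v0b) and in 6.02% of all windows. Its longer form occurred in 1 member window (Atp6v1a) and in 0.785% of all windows. The AP-1 site occurred in 2 member windows (Snx10 and Atp6v0a1) and in 6.75% of all windows. The NFAT core was in 23 of the 41 member windows and in 55.6% of all windows, and TATAAA in 1 member window and 12.4% of all windows. A match is a run of letters and no measure of binding. Members with the PU.1 form, the E-box or the AP-1 site stood on both sides of the threshold in the metaphysis.

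In the diaphysis no member was called higher or lower. The targeted gene Dlx3 was not called there either, with a log2 difference of -2.52 ± 0.50 (SE). A missing call in this fit therefore does not show that a gene was unchanged. None of the 35 tested members passed the threshold, as none of 12540 genes did (0% higher and 0% lower; 86 genes had an unadjusted p under 0.05, none of them a member). The log2 difference was positive in 20 members and negative in 15, with a median of 0.05 beside 0.00 over all genes tested. No member separated the genotypes, where 2.24% of all genes tested lay wholly above in cKO and 0.789% wholly below.

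The WT libraries of the diaphysis were themselves far apart. WT replicate 1 was the lowest of the 6 libraries in 21 of the 35 members, and WT replicate 3 the highest in 15. Acp5 was at 411, 560.2 and 695 RPKM in diaphysis cKO libraries against 156, 569 and 764 RPKM in WT libraries. Ctsk was at 432, 627 and 719.7 RPKM in cKO libraries against 164, 663 and 985 RPKM in WT libraries. For both enzymes WT replicate 1 fell far below the other 5 libraries and WT replicate 3 above them. Their log2 differences were 0.41 ± 0.56 for Acp5 and 0.29 ± 0.62 for Ctsk (SE; limma adjusted p = 1.00 for each), and the mean RPKM of Ctsk was 593 ± 147 in cKO against 604 ± 414 in WT (SD, n = 3 each), lower in cKO where the mean of the logs is higher.

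For both osteoclast-type pump subunits, too, WT replicate 1 was the lowest library. Atp6v0d2 was at 13.5, 21.6 and 24.8 RPKM in cKO libraries against 5.32, 20.3 and 35.2 RPKM in WT libraries (log2 difference 0.30 ± 0.63 SE). Tcirg1 was at 31.2, 47.5 and 43.7 RPKM in cKO libraries against 27.8, 42.9 and 43.8 RPKM in WT libraries (log2 difference 0.10 ± 0.24 SE). The widely expressed Atp6v0d1 was nearly level, at 41.9, 38.0 and 39.0 RPKM in cKO libraries against 39.3, 37.2 and 34.0 RPKM in WT libraries. Atp6v1c1 was at 21.4, 25.9 and 28.2 RPKM in cKO libraries against 21.6, 25.2 and 29.6 RPKM in WT libraries. Over the 16 widely expressed subunits the log2 differences ran from -0.12 to 0.12.

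The receptors Oscar and Calcr and the fusion protein Ocstamp were low in the diaphysis. Oscar was at 4.72, 5.16 and 6.32 RPKM in cKO libraries against 1.79, 5.44 and 8.14 RPKM in WT libraries. Ocstamp was at 2.99, 3.59 and 4.22 RPKM in cKO libraries against 0.815, 4.42 and 6.73 RPKM in WT libraries. Calcr was at 0.464, 0.942 and 2.003 RPKM in cKO libraries against 0.350, 2.03 and 2.88 RPKM in WT libraries. In all 3 genes the cKO libraries fell between the lowest and the highest WT library. Nfatc1 was at 9.71, 18.04 and 18.9 RPKM in cKO libraries against 9.67, 17.96 and 22.7 RPKM in WT libraries. Itgb3 was at 116, 75.2 and 85.8 RPKM in cKO libraries against 144, 74.7 and 71.1 RPKM in WT libraries, with its highest value in the WT replicate that was lowest for the enzymes. Src was at 12.3, 11.6 and 12.9 RPKM in cKO libraries against 13.0, 11.8 and 13.5 RPKM in WT libraries, the most even of the regulators.

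The remaining named members of the diaphysis overlapped as well. Snx10 was at 15.5, 19.9 and 25.6 RPKM in cKO libraries against 12.1, 21.4 and 27.9 RPKM in WT libraries, and Plekhm1 at 9.11, 11.9 and 11.4 RPKM in cKO libraries against 9.97, 11.7 and 13.4 RPKM in WT libraries. Slc4a2 was at 16.3, 21.8 and 22.0 RPKM in cKO libraries against 10.5, 20.6 and 26.8 RPKM in WT libraries. Clcn7 was at 9.41, 12.4 and 12.2 RPKM in cKO libraries against 8.01, 12.3 and 14.7 RPKM in WT libraries. All of these had WT replicate 3 as the highest library. Ostm1 was at 15.9, 14.9 and 17.3 RPKM in cKO libraries against 15.4, 15.7 and 14.6 RPKM in WT libraries. Car2 was at 520.2, 426 and 619 RPKM in cKO libraries against 804, 408 and 367 RPKM in WT libraries, highest in WT replicate 1.

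WT replicate 1 of the diaphysis also stood apart in its cell markers. The summed RPKM of 5 osteoclast markers, 3 of them members, was 1042 to 1676 in cKO libraries against 431, 1435 and 2005 in the WT libraries, the 431 in WT replicate 1. The sum of 6 osteoblast markers was 6249 to 8933 in cKO libraries against 2589 in WT replicate 1, 11198 in WT replicate 2 and 15518 in WT replicate 3. The sum of 7 red cell precursor markers was 1138 to 1591 in cKO libraries against 2480.4, 1249 and 1148 in the WT libraries, the highest in WT replicate 1. Diaphysis cKO replicate 1 differed from the other cKO libraries partly in the same direction. Its globin share was 26.5% against 15.3% and 18.7%, and its depth of 18.6 M reads was the lowest. It had the lowest osteoclast and osteoblast sums of the cKO libraries, 1042 and 6249. Its red cell precursor sum of 1538 lay between those of the other cKO libraries. The part of these values in the spread of the members was not tested. Without WT replicate 1, and with cKO replicate 1 kept, 27 of the 35 members had a negative log2 difference. The median was -0.13 beside -0.01 over all genes, and still none passed the threshold. Calcr and Ocstamp had an unadjusted limma p under 0.05, as 4.57% of all genes tested did.

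**Figure D4:**
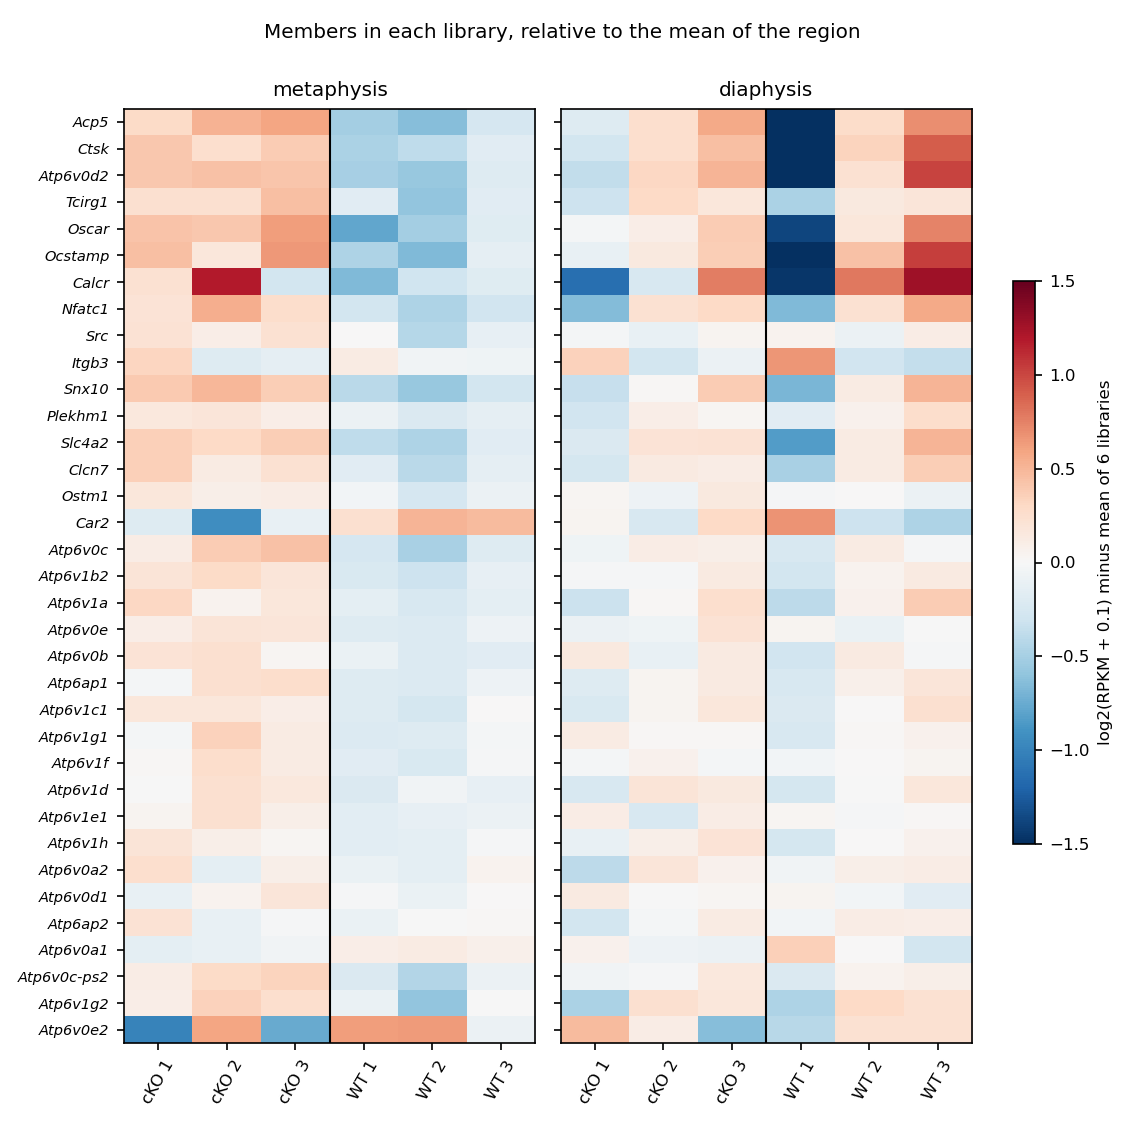
Each tested member (down) in each library (across), as log2(RPKM + 0.1) minus the mean of the 6 libraries of that region; red is above and blue below the mean, and values beyond 1.5 take the end colour. In the metaphysis most members are red in all 3 cKO libraries and blue in the WT libraries, with Car2 and Atp6v0a1 reversed; in the diaphysis the darkest blue is in WT replicate 1 for Acp5, Ctsk, Atp6v0d2, Ocstamp and Calcr.

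Whether the genotype effect itself differed between regions was tested in 1 fit of all 12 libraries. The effect in the metaphysis minus that in the diaphysis was positive in 31 of 35 members, with a median of 0.37 beside -0.03 over all genes, and no member passed the threshold, as none of 12321 genes did (0% in each direction; smallest limma adjusted p 0.908). The members with a limma p under 0.05 before adjustment were Atp6v0c (0.53 ± 0.19 SE), Atp6v0c-ps2 (0.43 ± 0.19) and Src (0.42 ± 0.18), and 495 of all genes had one. For Acp5 the difference of effects was 0.52 ± 0.65 (SE), for Ctsk 0.40 ± 0.71, for Tcirg1 0.52 ± 0.29, for Snx10 0.79 ± 0.37 and for Car2 -0.88 ± 0.42. Without WT replicate 1 of the diaphysis, 247 genes passed the threshold, 186 of them positive (1.51% of 12284), and among the members Ocstamp (1.44 ± 0.30 SE) and Oscar (1.28 ± 0.28 SE) did (limma adjusted p = 0.0487 for each). Diaphysis cKO replicate 1 was kept in that fit. Whether a member passed the threshold here depended on WT replicate 1 of the diaphysis.

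WT levels in the metaphysis and the diaphysis were compared without a test, since the regions come in separate tables that may have been normalised separately. Mean RPKM in the WT metaphysis over that in the WT diaphysis was 2.48 for Ocstamp, 2.20 for Oscar, 2.14 for Acp5, 1.76 for Atp6v0d2, 1.47 for Ctsk and 1.36 for Tcirg1. Other members were near or below 1: 1.07 for Slc4a2, 1.02 for Car2, 0.94 for Src, 0.88 for Calcr and 0.73 for Itgb3, and the median of the 6 receptors, fusion proteins and regulators was 1.04. With WT replicate 1 of the diaphysis left out, the ratios of Ocstamp, Oscar, Acp5, Atp6v0d2, Ctsk and Tcirg1 were 1.78, 1.66, 1.59, 1.28, 1.08 and 1.20. Those of Slc4a2, Car2, Src, Calcr and Itgb3 were then 0.87, 1.38, 0.95, 0.63 and 0.97. Car2 thus lay above Atp6v0d2, Tcirg1 and Ctsk, and the order of these genes depended on that library. Snx10 had a ratio of 1.58, or 1.31 without that library. The widely expressed subunits ran from 0.81 for Atp6v0a2 to 1.69 for Atp6v1b2, with a median of 1.23, or 1.17 without that library. In the WT metaphysis Acp5 (1060.4 ± 148 RPKM, SD, n = 3) and Ctsk (889 ± 98.4 RPKM) were the most abundant members, with Acp5 above Ctsk in each of the 3 libraries although their ranges overlap. Car2 followed at 535 ± 52.9 RPKM, the widely expressed subunits lay between 10.4 and 147 RPKM, and Calcr was the lowest tested member at 1.54 ± 0.27 RPKM.

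A list of 39 other osteoclast genes was read beside the members in the metaphysis. Of the 37 other osteoclast genes tested, 13 were higher, none was lower and 24 did not pass the threshold, with a median log2 difference of 0.15; Fosl1 and Syt7 were below the filter. The largest among those past the threshold were Dcstamp and Mmp9. Dcstamp, the fusion protein related to Ocstamp, was at 28.6, 17.6 and 22.2 RPKM in cKO libraries against 9.71, 9.57 and 13.2 RPKM in WT libraries (log2 difference 1.05 ± 0.20 SE, limma adjusted p = 0.0225). Mmp9, a gelatinase of osteoclasts and neutrophils, was at 642, 688 and 787 RPKM in cKO libraries against 436, 278 and 410.1 RPKM in WT libraries (log2 difference 0.94 ± 0.18 SE, limma adjusted p = 0.0238). Both lay wholly above WT.

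Markers of several cell types moved with the members in the metaphysis. The sum of 5 osteoclast markers was 3936 to 4482 RPKM in cKO libraries against 2086 to 2646 RPKM in WT libraries; it holds Acp5, Ctsk and Calcr, which are members. That of 6 osteoblast markers was 12776 to 13666 RPKM in cKO against 8123 to 10706 RPKM in WT. Of these markers 4 were higher, but Col1a1, which makes up most of the sum, did not pass the threshold (limma adjusted p = 0.107). Bglap did not pass it either (limma adjusted p = 0.946). The 4 chondrocyte markers summed to 1145 to 1814 RPKM in cKO against 554 to 769 RPKM in WT. Of them 3 were higher, and Col2a1, most of that sum, did not pass (limma adjusted p = 0.0689). The sum of 7 macrophage markers was 223 to 261 RPKM in cKO against 171 to 197 RPKM in WT, but its genes went in different directions: Csf1r and Cd68, which make up most of it, were higher, Vcam1 was lower (log2 difference -0.60 ± 0.14 SE, limma adjusted p = 0.0379) and the other 4 did not pass the threshold. In the other direction, 6 B lymphoid markers summed to 190.4 to 228 RPKM in cKO against 293 to 369 RPKM in WT, with 4 of them lower and 2 not past the threshold. Sums of neutrophil and of skeletal muscle markers overlapped, and no marker of these lists was at 0 in all libraries of the region. Their part in the member results was not tested.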

How the data were processed

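Per the labels' protocols, RNA of femur metaphysis and diaphysis was extracted with Trizol and sequenced from TruSeq libraries, which do not mark strand. Per the file headers, the authors deposited 1 table per region of RPKM per RefSeq transcript. Bowtie 0.12.7.0, TopHat 1.3.2, CASAVA 1.8.2 and Partek 6.6 appear in the submitters' processing notes, with build mm9 and no role for each. For filters and reads shared by transcripts, the method is not given in the sources used here. RPKM is scaled by length and library total, so a larger globin share lowers the other genes. Depth was read from the spacing of low values. Of these, 70.6% to 76.4% came within 0.1 of a whole read number (20% by chance), too few to rebuild counts, so no count test was run.

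Transcripts were summed per symbol, matched by accession where the tables use an older name (Ocstamp as 4833422F24Rik, Dcstamp as Tm7sf4). Genes with at least 1 RPKM in 3 of 6 libraries were kept, and log2(RPKM + 0.1), a scale that understates low genes, was fitted per region with limma 3.58.1 under R 4.3.3, 2-sided and with a trended prior, with Benjamini-Hochberg adjustment over all genes. Regions were contrasted in a joint fit of the 12 libraries. Ratios within libraries were tested by exact permutation. Scripts were tested on simulated data. Groups come from the labels; replicate numbers only name libraries, in the order of the records. Named genes were the members fixed by name with values in every library, the extremes of each role class, and the 2 largest rises among other osteoclast genes. A further list of genes is not reported here. The members and lists were chosen with earlier results of these data known. Alternatives covered pseudocount, filter, scaling, transcript choice, the estimate of spread and each library left out. Python 3.11.15, pandas 2.3.3, numpy 2.4.6, scipy 1.17.1 and matplotlib 3.10.9 were used.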

Additional observations from a re-analysis of the deposited data

How the results depend on the processing

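No paired analysis was possible because the labels give the groups no shared replicate numbers. The 14 members called higher in the metaphysis numbered 6 with no filter on low values and 0 with all 12 libraries in 1 fit, where 789 and 7 genes were called in all, against 1441. With a filter of 5 RPKM, 1 member (Car2) was called lower. Leaving out each library in turn gave 105 to 1418 genes called, 1 to 13 members higher and 0 to 2 lower. Other scalings, pseudocounts and a robust prior kept the 14 calls, except that scaling without globin left 12, as did the highest transcript. Atp6v0e and Clcn7 were lost in the scaling without globin, and Atp6v0e and Nfatc1 with the highest transcript. All 14 differences stayed positive under every alternative run.

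Some differences that were never called changed sign. In the metaphysis Itgb3 was 0.00744 with median scaling and 0.00297 without globin, and ran from -0.17 to 0.0903 as libraries were left out, as Atp6ap2 did from -0.0355 to 0.13. In the diaphysis Snx10 was -0.0553 with the highest transcript. Leaving out libraries there gave -0.28 to 0.87 for Acp5, -0.48 to 0.82 for Ctsk, -0.47 to 0.88 for Atp6v0d2, -0.11 to 0.28 for Tcirg1, -0.60 to 0.85 for Ocstamp, -0.31 to 0.75 for Oscar, -1.23 to 0.0616 for Calcr, -0.44 to 0.22 for Nfatc1, -0.30 to 0.30 for Snx10, -0.25 to 0.43 for Slc4a2 and -0.15 to 0.41 for Car2. The diaphysis log2 ratios ran from -0.12 to 0.37 for Tcirg1 and from -0.62 to 0.84 for Atp6v0d2. For the difference between regions, leaving out libraries gave 0 to 247 genes and 0 to 2 members called, with -0.0482 to 1.302 for Atp6v0d2 and -0.13 to 1.17 for Ctsk. The cause of these changes was not tested. On a transcript of 2 kb, 10 reads come to 0.269 RPKM in the shallowest library, so values well below the filter of 1 RPKM rest on few reads there.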

Other observations

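The other genes of the osteoclast list that were higher in the cKO metaphysis, named here after their values were seen, included receptors, proteases and transporters. Tnfrsf11a, which encodes the receptor RANK, was at 7.27, 5.73 and 5.43 RPKM in cKO libraries against 3.17, 3.69 and 3.14 RPKM in WT libraries (log2 difference 0.85 ± 0.14 SE, limma adjusted p = 0.0171). Csf1r, the receptor for the macrophage growth factor M-CSF, was at 90.4, 77.8 and 90.04 RPKM in cKO libraries against 51.9, 54.2 and 58.0 RPKM in WT libraries (log2 difference 0.65 ± 0.10 SE, limma adjusted p = 0.0133). Both receptors were higher in each cKO library than in any WT library. Mmp14, Ckb, Slc9b2, Slc37a2, Prdm1, Cd109, Itgav, Jdp2 and Rab38 also passed the threshold, with log2 differences of 0.52 to 0.88.

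Other genes of the same list did not separate the genotypes. Spi1, which encodes PU.1, was at 68.4, 63.99 and 63.4 RPKM in cKO libraries against 77.5, 47.4 and 54.8 RPKM in WT libraries (log2 difference 0.15 ± 0.17 SE, limma adjusted p = 0.585). The signalling adaptors Tyrobp and Fcer1g, through which receptors such as Oscar act, had log2 differences of 0.23 ± 0.13 and 0.10 ± 0.19 (SE; limma adjusted p = 0.290 and 0.766). All 3 overlapped between cKO and WT libraries. None of these genes passed the threshold in the diaphysis.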
